A study of Drosophila melanogaster with 27 samples.

Results

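The genes described here encode the protein subunits of the *Drosophila* mitochondrial ribosome. They were chosen by name, as every gene whose FlyBase symbol begins with mRpL or mRpS followed by a digit. Of 73 such symbols, 72 matched a row of the expression tables, out of 17714 genes in all, with 47 assigned by name to the large subunit (mRpL) and 25 to the small subunit (mRpS). The other one, *mRpS5*, was not analysed here. All 72 passed the filter on low counts in both experiments.

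The mitochondrial ribosome translates the few mRNAs that the mitochondrial genome encodes, all of which specify subunits of the respiratory chain and of ATP synthase. Its own proteins are encoded in the nucleus, translated in the cytoplasm and imported. The egg receives its mitochondria and its first stock of these mRNAs from the mother. Nanos (Nos) is a translational repressor and mRNA-destabilizing factor that is recruited to mRNAs such as *hunchback* (*hb*) together with the RNA-binding protein Pumilio, and Upf1 is an RNA helicase of nonsense-mediated mRNA decay.

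Poly(A)-selected RNA was sequenced from embryos in 9 groups of 3 libraries. The 15 sorted libraries came from embryos picked by hand at nuclear cycle 9, either wild type (*w*) or from females that expressed Upf1, Nos, the fusion Upf1-Nos, or Upf1-NosL7, in which Nos carries a tail deletion that prevents its recruitment to *hb*. The 4 transgenes were driven by a maternal alpha-tubulin GAL4-VP16 driver, so that they were expressed in the female germline, and each carried the *nos* 3′ UTR. Upf1-Nos embryos had abnormal nuclei and were picked as being of about the same age. The 12 unsorted libraries came from timed collections at 0-1 h and 2-3 h, either wild type or from *nos*- mothers carrying *nos*BN over the deficiency Df(3R)Exel6183. The study calls its replicates biological. Whether those of a group came from separate crosses is not given in the sources used here, and p-values measure the spread between these libraries. Totals were between 14022879 and 22002028 expected counts in sorted and between 15253031 and 21661085 in unsorted libraries. Levels are given as TPM, a share of the library corrected for transcript length that allows genes to be compared, or as CPM, counts relative to the library size scaled by the factors of the test, which compares 1 gene between groups. In sorted libraries the follicle cell genes summed to at most 0.29 TPM. The 8 zygotic patterning genes (*Kr*, *gt*, *kni*, *eve*, *ftz*, *sna*, *twi* and *zen*) summed to between 8.13 and 17.35 TPM in the Nos libraries and to between 2.79 and 6.25 TPM in the other sorted groups. The part of this difference in the Nos comparison was not tested. The reference target *hb* was at 100, 112 and 156 CPM in wild type and at 1.03, 0.872 and 0.889 CPM in Upf1-Nos. Its libraries did not overlap between these groups.

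In sorted wild-type libraries, every member was detected. *mRpS7*, which encodes a protein of the head of the small subunit, was highest, at 407, 418 and 358 TPM. It was followed by *mRpS18A*, whose mammalian counterpart lies in the large subunit despite its name, at 349, 362 and 289.9 TPM, and by *mRpL12*, which forms the flexible stalk that recruits translation factors, at 342, 318 and 287 TPM. The ranges of these neighbours overlapped. The lowest was *mRpL2*, a protein near the peptidyl transferase centre, at 15.1, 18.4 and 15.95 TPM. *mRpL38*, at 22.7, 32.6 and 24.9 TPM, and *mRpL43*, at 26.3, 35.8 and 23.8 TPM, overlapped with each other and lay above all 3 values of *mRpL2*. The SD of log2 TPM over the 72 members was between 0.814 and 0.897 in the 3 sorted wild-type libraries. It was between 0.509 and 0.524 in the 3 unsorted ones at 0-1 h, where the members were closer to one level. At 2-3 h it was between 0.994 and 1.16, above the sorted libraries. Sorting and age differ together between these libraries, so their parts cannot be told apart.

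Comparing Upf1-Nos with wild type asks which maternal mRNAs fall when Nos is fused to a decay factor. Of the 72 members, 25 were depleted and 0 enriched, where a call required an adjusted p below 0.05 in edgeR's quasi-likelihood test (Benjamini-Hochberg over all genes tested) and a fold change above 2. Among all genes tested, 39.3% were depleted and 1.05% were enriched, so the share of members depleted, 34.7%, was near that background. What set the members apart from one another was the size of the change, which ran from −5.22 to 0.12 on the log2 scale. The median was −0.59, against −0.50 over all genes tested. No member was higher at an unadjusted p below 0.05, and DESeq2 also called 25 lower and 0 higher. The libraries of the 2 groups did not overlap for any of the 25 depleted members. The call itself largely implies this, and no share over all depleted genes is given here.

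The deepest depletion was in the large subunit. *mRpL46* (FBgn0035272, chromosome 3L, 1777439 to 1778347 in build BDGP6.54) was at 36.2, 46.1 and 29.9 CPM in wild type and at 1.03, 1.07 and 0.889 CPM in Upf1-Nos. Each Upf1-Nos library held 17 to 22 counts of it and each wild-type library 612 to 738. The change was −5.22 ± 0.20 (log2, SE, n = 3 against 3, adjusted p = 9.45e-12 in edgeR), a 37.3-fold decrease.

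*mRpL38* (FBgn0030552, chromosome X, 14226289 to 14227949) was at 26.9, 37.9 and 24.6 CPM in wild type and at 0.703, 0.920 and 0.941 CPM in Upf1-Nos, a log2 change of −5.11 ± 0.21 (SE, edgeR adjusted p = 1.71e-11). *mRpL47* (FBgn0014023, chromosome 3R, 9514822 to 9515908), whose product corresponds to bacterial L29 beside the exit tunnel in spite of its high number, was at 44.5, 65.4 and 35.9 CPM in wild type and at 1.3, 1.36 and 1.78 CPM in Upf1-Nos, a log2 change of −5.03 ± 0.26 (SE, edgeR adjusted p = 1.5e-10). Every Upf1-Nos library was far below every wild-type library for both genes. In the small subunit, *mRpS2* (FBgn0031639, chromosome 2L, 4849439 to 4850419) fell from 32.0, 36.7 and 24.7 CPM to 2.06, 1.40 and 1.88 CPM, a log2 change of −4.13 ± 0.18 (SE, edgeR adjusted p = 3.31e-11).

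**Figure D1:**
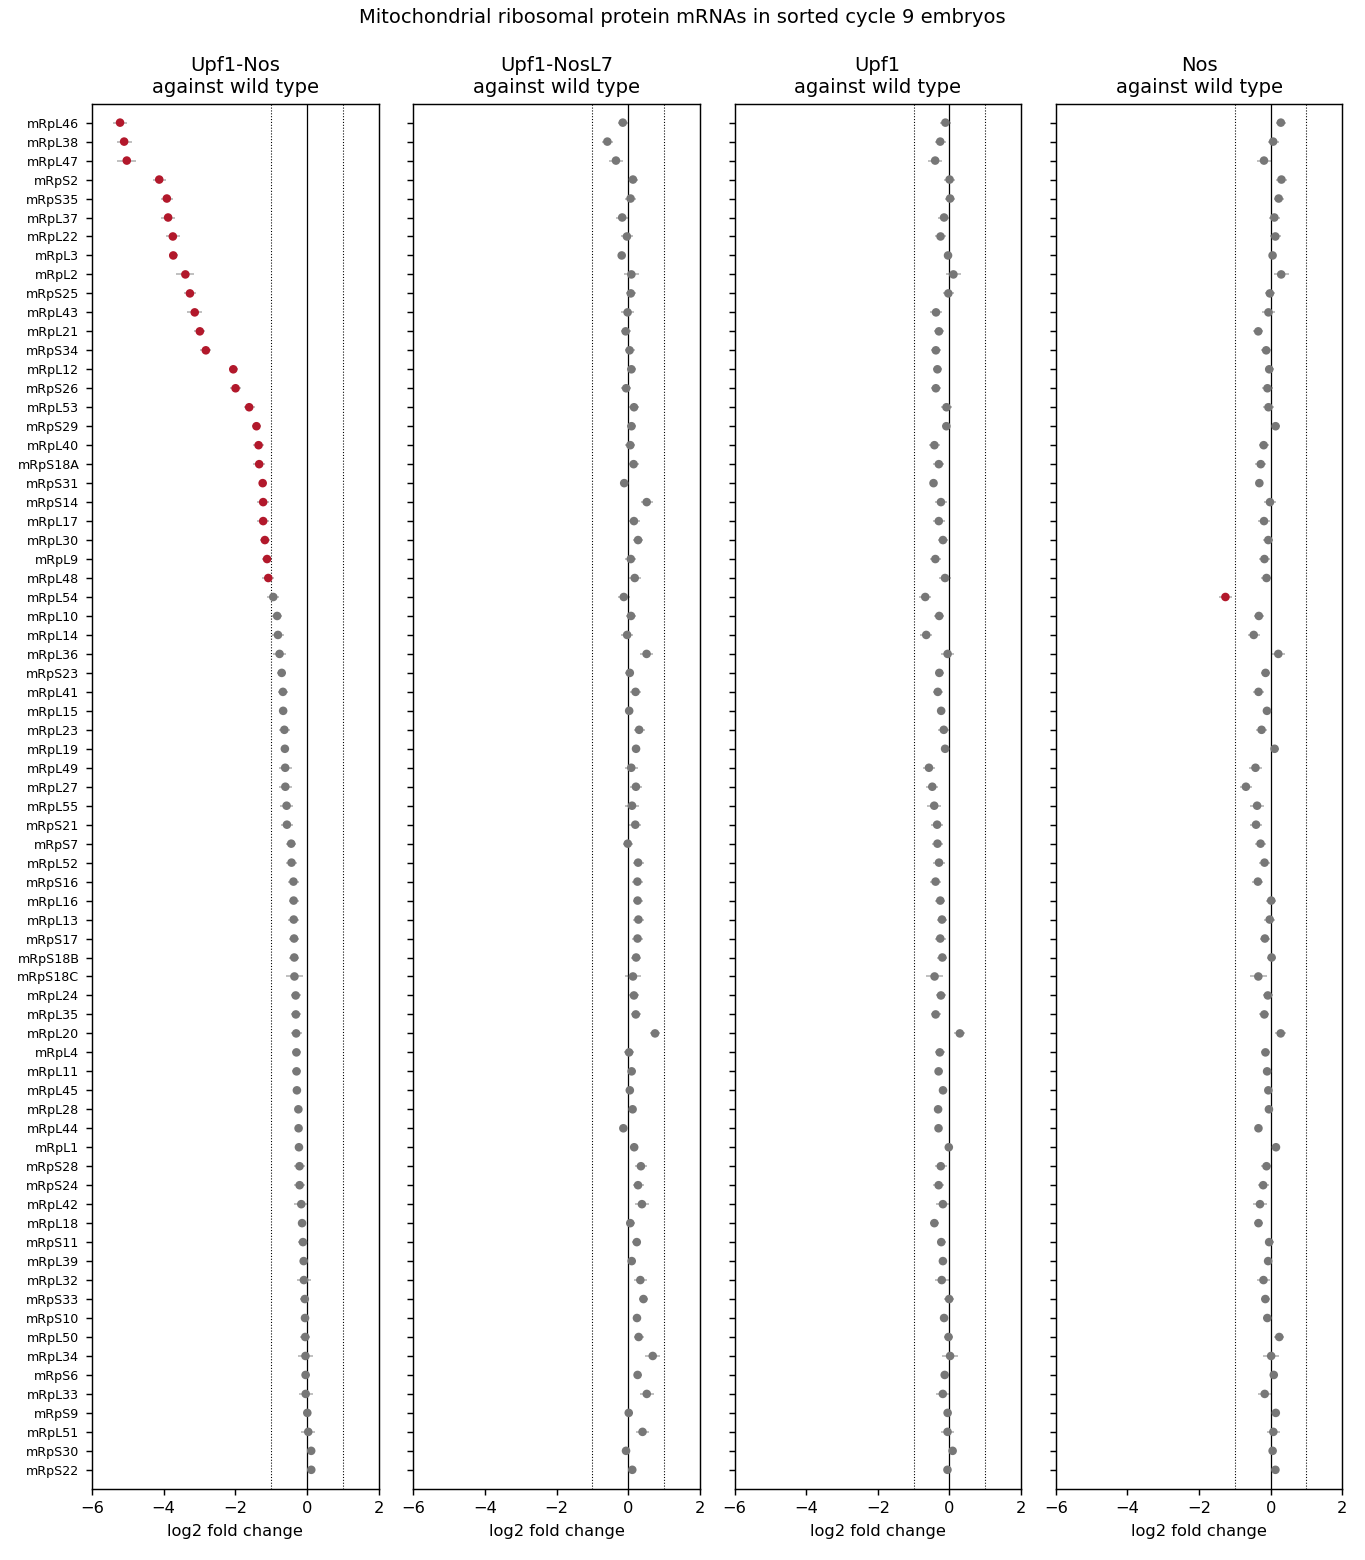
Log2 fold change against wild type (x axis) of the 72 members (rows, ordered by their change in Upf1-Nos) in 4 genotypes of sorted cycle 9 embryos. Points are fitted changes, bars are standard errors, red points passed the test and the 2-fold threshold, and dotted lines mark 2-fold changes. In Upf1-Nos 25 members are red, running from *mRpL46* at −5.22 to *mRpL48* at −1.08, while in the other 3 genotypes the only red point is *mRpL54* in Nos.

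Further depleted members included core and mitochondria-specific proteins of both subunits. *mRpL22*, which lines the exit tunnel, changed by −3.74 ± 0.19 (log2, SE), and *mRpL3*, near the peptidyl transferase centre, by −3.73 ± 0.12. *mRpL2*, already the scarcest member by TPM, fell from 12.5, 15.1 and 11.1 CPM to 0.812, 1.26 and 1.57 CPM. *mRpL12* and the GTP-binding protein gene *mRpS29*, the homologue of mammalian DAP3, fell less, by 2.06 and by 1.41 on the log2 scale. Of the 25, 14 were depleted by more than 4-fold, 11 by more than 8-fold and 4 by more than 16-fold. No share over all genes is given for these tiers. *mRpL48* at −1.08 was the last inside the threshold and *mRpL54* at −0.94 the first outside it.

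At the other end were *mRpS22* and *mRpS30*, which did not pass the test. *mRpS22* was at 84.6, 83.2 and 72.9 CPM in wild type and at 86.0, 85.7 and 89.9 CPM in Upf1-Nos, a log2 difference of 0.12 ± 0.10 (SE, edgeR adjusted p = 0.288), although the ranges did not meet. *mRpS30*, whose mammalian counterpart is a large subunit protein, was at 179, 161 and 196 CPM in wild type and at 208, 176 and 198 CPM in Upf1-Nos, so that the groups overlapped. *mRpS7*, the most abundant member in wild type, lay in the middle of the ranking, at 243, 245 and 177 CPM in wild type and at 160, 174 and 156 CPM in Upf1-Nos. Its log2 difference of −0.44 ± 0.14 (SE, edgeR adjusted p = 0.0143) passed the test but not the 2-fold threshold, and the ranges nearly met. Of the 47 members not called depleted, 23 also missed an adjusted p of 0.05, and the other 24 were lower by less than 2-fold.

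**Figure D2:**
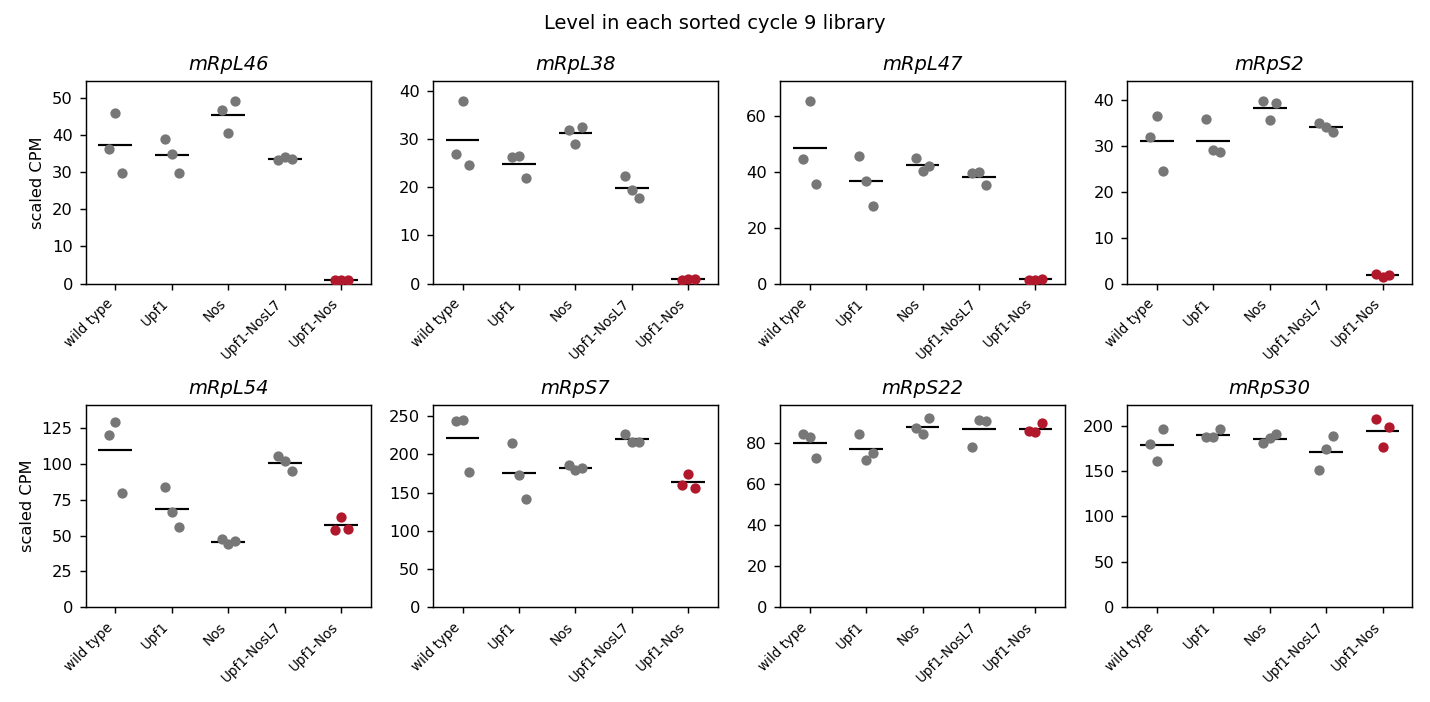
Level in CPM on the scaled library size (y axis, starting at 0) of 8 members in each of the 15 sorted libraries, by genotype (x axis). Points are single libraries, lines are means of 3 and Upf1-Nos is in red. For *mRpL46*, *mRpL38*, *mRpL47* and *mRpS2* the 3 Upf1-Nos libraries lie at or below 2.06 CPM, while for *mRpS22* they lie between 85.7 and 89.9 CPM, within reach of the other genotypes.

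The 2 subunits were depleted in like proportion, with 16 of 47 large subunit genes and 9 of 25 small subunit genes. By number, 11 of 41 members within the range named after bacterial proteins (up to 36 in the large and 21 in the small subunit) were depleted, with a median change of −0.38, and 14 of 31 members above that range, with a median of −0.70. No test was made of either difference, and the classes follow the names only. The 2 genes of small subunit proteins whose symbols lie outside the naming rule differed: *bonsai* was depleted (log2 change −1.64 ± 0.13, SE, edgeR adjusted p = 2.33e-08), while *tko* was at −0.76 ± 0.16 and was not called.

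Annotated 3′ UTRs of the members were short. The most abundant isoform of each had a median 3′ UTR of 57.5 nt, against 241 nt over all genes tested. The median was 60 nt in depleted members and 57 nt in the others, and across the 72 members the log2 change had a Pearson r of −0.03 with 3′ UTR length. For isoform length, r was −0.25, with a median of 829 nt in depleted members and 707 nt in the others. These correlations are across genes measured in the same libraries and are descriptions only. Because 8 members shared more than 20% of their exon length with a neighbouring gene, and counting by strand is not stated, their values are uncertain. Of these, *mRpL53*, *mRpS14*, *mRpL17* and *mRpL48* were among the depleted, and *mRpL53* overlapped its neighbours over its whole length.

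Scaling set the position of the smaller changes. The Upf1-Nos libraries took correction factors from 20 genes listed in the study. With TMM factors in all libraries instead, the median over all genes moved from −0.50 to 0.07, the share of lower among all calls from 97.4% to 76.2%, and the number of depleted members from 25 to 16. Then 0 members were called higher at 2-fold, and 19 were higher at any size. All 16 were among the 25, and the 9 lost lay between *mRpS29* at −0.84 and *mRpL48* at −0.49 on the log2 scale. With factors from cytosolic ribosomal protein genes, 23 remained.

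The embryos expressing Upf1, Nos or Upf1-NosL7 are the controls for the fusion. All share the 3 wild-type libraries with the comparison above. In Upf1, 0 members were called either way, against 2.3% of all genes called lower and 1.72% called higher. The changes ran from *mRpL54* at −0.67 ± 0.17 (log2, SE, edgeR adjusted p = 0.0192) to *mRpL20* at 0.29 ± 0.15, and their median was −0.24, against 0.06 over all genes. At an unadjusted p below 0.05, 22 members were lower and 0 higher, and DESeq2 called 0 either way.

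In Nos, 1 member was called lower and 0 higher, against 2.87% and 2.73% of all genes. This was *mRpL54* (FBgn0034579, chromosome 2R, 21060789 to 21061587), a mitochondria-specific protein of the large subunit. It was at 47.6, 43.9 and 46.0 CPM in Nos and at 121, 129 and 80.1 CPM in wild type, with no overlap. The change was −1.26 ± 0.17 (log2, SE, edgeR adjusted p = 0.000113). Its level in Upf1-Nos, 53.7, 63.2 and 54.9 CPM, was above that in Nos. For the other 71 members, the changes in Nos lay within 2-fold, and the median over all 72 was −0.10. At an unadjusted p below 0.05, 12 members were lower and 0 higher in Nos, and DESeq2 called 1 lower and 0 higher.

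In Upf1-NosL7, 0 members were called either way, against 1.75% of all genes called lower and 0.988% called higher. The lowest was *mRpL38*, at 22.3, 19.5 and 17.8 CPM against 26.9, 37.9 and 24.6 CPM in wild type, a log2 difference of −0.58 ± 0.16 (SE, edgeR adjusted p = 0.0246). The highest was *mRpL20*, at 62.3, 85.6 and 75.7 CPM against 46.2, 51.5 and 35.4 CPM, a log2 difference of 0.75 ± 0.15 (SE, edgeR adjusted p = 0.00425). Both were within 2-fold. At an unadjusted p below 0.05, 1 member was lower and 9 were higher, and DESeq2 called 0.

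Set directly against Upf1-NosL7, which differs from it in the tail of Nos, Upf1-Nos had 27 members lower and 0 higher. The background was 37.8% of all genes lower and 4.07% higher. The 27 held all 25 of the comparison with wild type, together with *mRpL36* (log2 change −1.28 ± 0.18, SE) and *mRpL20* (−1.05 ± 0.15). The largest differences were again those of *mRpL46* (−5.07 ± 0.20), *mRpL47* (−4.69 ± 0.26), *mRpL38* (−4.52 ± 0.21) and *mRpS2* (−4.26 ± 0.18). No library of these overlapped between the groups, which was a condition for naming them. At an unadjusted p below 0.05, 0 members were higher, and DESeq2 called 27 lower and 0 higher. With TMM in all libraries 17 were lower.

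Since the proteins are assembled into 1 particle, the spread of levels among the members was followed in each library. In Upf1-Nos the SD of log2 TPM over the 72 members was 2.02, 2.10 and 2.01, against at most 0.950 in any other sorted library. The summed TPM of all members changed less, from 9759, 9924 and 8546 in wild type to 7346, 8107 and 7803 in Upf1-Nos. TPM carries no correction factors for the Upf1-Nos libraries (1.26, 1.47 and 1.33), so this fall is smaller than on the scaled library size. The members' median log2 change in Upf1-Nos was −0.27 in TPM and −0.59 in the test. In the unsorted embryos the SD was between 0.509 and 0.524 at 0-1 h and between 0.994 and 1.16 at 2-3 h in wild type. In *nos*- it was between 0.509 and 0.515 at 0-1 h and between 0.919 and 1.01 at 2-3 h. No SD over all genes or over another list is given here for any group. A fall in part of a set by itself widens its spread, so these values are not separate from the calls. TPM values are shares of a library. Embryos at cycle 9 are syncytial, but in the whole-embryo libraries at 2-3 h, when cells form, fewer cells with an mRNA and less of it per cell cannot be told apart.

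**Figure D3:**
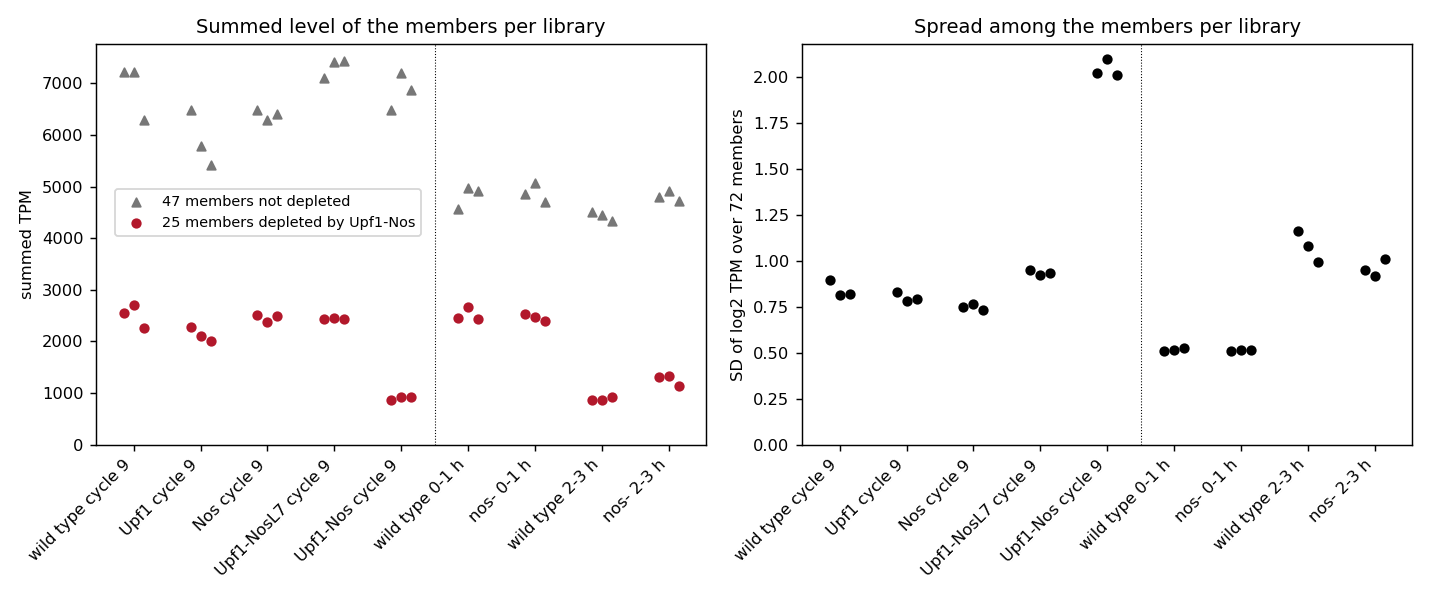
Left, summed TPM (y axis, starting at 0) per library of the 25 members called depleted in Upf1-Nos (red circles) and of the other 47 (grey triangles), by group (x axis). Right, SD of log2 TPM over the 72 members per library. The split follows the Upf1-Nos call, so the red drop in that group is a description. TPM here carries no correction factors for Upf1-Nos. In the unsorted libraries, which did not enter the split, the 25 summed to between 2442 and 2657 TPM at 0-1 h and to between 861 and 918 TPM at 2-3 h in wild type.

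These collections bracket the period in which maternal mRNAs are cleared and zygotic transcription begins. In wild type 15 members were called lower and 0 higher at 2-3 h by edgeR, at a fold change above 2. Of all genes, 25.4% were lower and 17.1% higher. Of the 6543 genes tested in both experiments, which leaves out those called in Upf1, 2074 were lower and 517 higher. At any size of change 28 members were lower and 29 higher, and the median was −0.02, against 0.25 over all genes. Of the 8445 genes tested, 3090 were lower and 3477 higher at any size. The members thus moved in both directions, as all genes did, but among the members only the decreases exceeded 2-fold. DESeq2 called 16 lower and 0 higher, and 30 were higher at an unadjusted p below 0.05.

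*mRpL38* fell from 51.4, 61.2 and 47 CPM to 6.45, 7.49 and 10.2 CPM, a log2 change of −2.72 ± 0.17 (SE, edgeR adjusted p = 5.54e-08). *mRpL3* fell from 70.0, 77.4 and 63.7 CPM to 9.48, 13.2 and 13.5 CPM, a change of −2.54 ± 0.15. *mRpS35*, a mitochondria-specific protein of the small subunit, changed by −1.85 ± 0.18, and *mRpL43* by −1.72 ± 0.20. In all 4 genes the time points did not overlap, which was a condition for naming them. The largest increase was that of *mRpS9*, at 0.76 ± 0.08 on the log2 scale (edgeR adjusted p = 2.09e-06), a gene that shares 25.1% of its exon length with its neighbour *ArgRS-m*. *mRpL51* followed at 0.69 ± 0.12.

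All 15 members that were lower at 2-3 h in wild type were among the 25 depleted by Upf1-Nos in sorted embryos, that is 60% of the depleted members and 0 of the 47 others. The 2 comparisons share no library. Among all genes tested in both, 74.1% of depleted genes and 4.11% of the others were lower at 2-3 h. All 25 depleted members had a stage change below 0, with a median of −1.28, while the other 47 had a median of 0.30 and 35 of them lay above 0. Over all genes tested in both, these medians were −1.72 and 0.46, so the members followed the general pattern with smaller medians. Of the 14 members depleted more than 4-fold, 13 were lower at 2-3 h, with no such share over all genes given here. The exception was *mRpL2*, at 24.9, 29.1 and 23.0 CPM at 0-1 h and 12.1, 17.0 and 23.2 CPM at 2-3 h, where the ranges overlapped. Of the 11 depleted between 2- and 4-fold, the 2 lower at 2-3 h were *mRpS26* and *mRpS29*. Across the 72 members the 2 log2 changes had a Pearson r of 0.87 and a Spearman rho of 0.84. Without the 2 members farthest from the median r was 0.86, and over the 6543 genes tested in both it was 0.77. With TMM factors for Upf1-Nos, 14 of the 15 were still depleted.

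**Figure D4:**
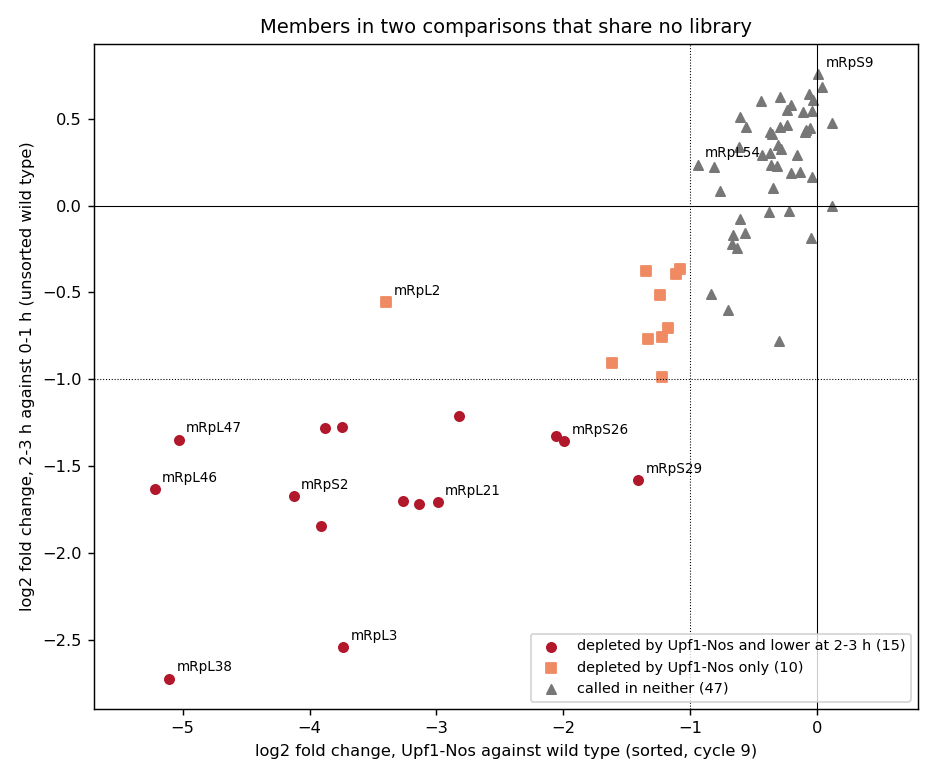
Log2 fold change in Upf1-Nos against wild type in sorted embryos (x axis) and at 2-3 h against 0-1 h in unsorted wild type (y axis) for the 72 members. Dotted lines mark 2-fold decreases. Red circles are the 15 members lower in both, orange squares the 10 depleted by Upf1-Nos alone and grey triangles the 47 called in neither. No member lies in the class of those lower at 2-3 h without being depleted.

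Across the 72 members the Upf1-Nos change had a Pearson r of 0.26 with log2 TPM in wild type at 0-1 h. Of the 24 members with the lowest TPM (42.4 to 80.95), 13 were depleted, of the middle 24 (81.1 to 105) 5, and of the highest 24 (105 to 306) 7. No share over all genes at these levels is given here, and the difference was not tested. In the *nos*- embryos 13 members were lower at 2-3 h than at 0-1 h and 0 were higher, where 20.3% and 12.1% of all genes were called. Of the 6543 genes tested in both experiments, 1668 were lower. All 13 were among the 15 of wild type, and the other 2 were *mRpS26* and *mRpS29*. The median change in *nos*- was −0.05, against 0.09 over all genes. DESeq2 called 12 lower and 0 higher there, and 9 members were higher at an unadjusted p below 0.05. The deepest change was that of *mRpL38*, at −2.59 ± 0.17 (log2, SE, edgeR adjusted p = 2.37e-07), followed by *mRpL3* at −2.0 ± 0.15, *mRpL46* at −1.75 ± 0.20 and *mRpL43* at −1.67 ± 0.19.

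Embryos of *nos*- mothers lack maternal Nos. At 0-1 h, 2 members were called lower and 1 higher than wild type, at a log2 fold change beyond 0.5, against 6.74% and 10.9% of all genes. Of the 6543 genes tested in both experiments, 204 were lower and 327 higher. The zygotic patterning genes summed to 46.9, 96.6 and 102 TPM in *nos*- and to 45.9, 43.0 and 46.3 TPM in wild type at 0-1 h, so that *nos*- replicates 2 and 3 stood apart, and the part of this in the result was not tested. *mRpL54* was at 29.0, 32.6 and 29.3 CPM in *nos*- and at 42.5, 52.9 and 47.2 CPM in wild type, a log2 change of −0.65 ± 0.10 (SE, edgeR adjusted p = 0.000729). *mRpL55* (FBgn0038678, chromosome 3R, 19094394 to 19094905), a subunit found in animals only, was at 10, 11.5 and 7.16 CPM against 13.1, 15.8 and 15.1 CPM, a change of −0.62 ± 0.18 (edgeR adjusted p = 0.0248). Leaving out any of 4 libraries (*nos*- replicate 1 or 3, wild type replicate 2 or 3) raised its adjusted p above 0.05 and left 1 member lower. *mRpL13* was higher by 0.50 ± 0.09, just at the threshold, and 0 members were higher with DESeq2, with RLE factors, or without *nos*- replicate 2 or wild type replicate 1. It shares 35.2% of its exon length with *CG10602*.

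At 2-3 h, 8.8% of all genes were lower and 18.6% higher in *nos*-. Of the 6543 genes tested in both experiments, 377 were lower and 1297 higher. Among the members, 2 were lower and 6 higher. The 2 were again *mRpL54*, at 25.5, 28.8 and 29.1 CPM against 53.2, 59.5 and 55.2 CPM (log2 change −1.01 ± 0.10, SE, edgeR adjusted p = 2.31e-05), and *mRpL55*, at 7.93, 8.06 and 8.84 CPM against 12.2, 13.4 and 13.8 CPM (−0.66 ± 0.18, edgeR adjusted p = 0.0112). *mRpL54* was thus lower than wild type both in embryos with added Nos and in those without maternal Nos. The wild-type libraries differ between those 2 comparisons. In sorted embryos *mRpL54* was also below wild type in Upf1, which adds no Nos (log2 change −0.67). In Upf1-Nos its log2 change was −0.94. In Upf1-NosL7 it was at 106, 102 and 95.1 CPM, within the range of wild type (121, 129 and 80.1 CPM). Whether its level follows Nos or another difference from the wild-type line was not tested. Without *nos*- replicate 1 *mRpL55* missed an adjusted p of 0.05, and 1 member was lower.

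Of the 6 higher members, *mRpS26* (FBgn0036774, chromosome 3L, 18106579 to 18107499) rose most. It was at 40.1, 40.4 and 37.4 CPM in *nos*- and at 17.5, 19.9 and 20.2 CPM in wild type at 2-3 h, a change of 1.03 ± 0.08 (log2, SE, edgeR adjusted p = 8.4e-06). *mRpS29* (FBgn0034727, chromosome 2R, 22418937 to 22420376) was at 40.8, 36.3 and 34.9 CPM against 23.1, 20.5 and 20.7 CPM, a change of 0.80 ± 0.10 (edgeR adjusted p = 0.000105). Neither overlapped between the genotypes. The other 4 were *mRpL2* (0.70 ± 0.20), *mRpL50* (0.57 ± 0.09), *mRpL20* (0.54 ± 0.14) and *mRpL21* (0.50 ± 0.13), whose adjusted p lay between 0.000711 and 0.0135. With the replicate number as a block, *mRpL21* fell just short of the log2 threshold of 0.5, which left 5 members higher.

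The count of higher members depended on single libraries. It was 13 without wild type replicate 3 at 2-3 h and 4 without *nos*- replicate 2. The summed level of the zygotic patterning genes was 742 TPM in that wild-type library and 663 and 712 TPM in the other two, against 396, 453 and 550 TPM in *nos*- at 2-3 h, and the summed maternal mRNAs were 703 TPM in it, 1224 and 879 TPM in the other two, and 1564, 1303 and 1346 TPM in *nos*-. The maternal sum covers 4 genes, from a list of *bcd*, *osk*, *nos*, *gcl* and *CycB*. That list names *nos*, the mutated gene, and *bcd*, which the study counts as a Nos target. The study also describes altered zygotic gene expression without maternal Nos. Both sums can therefore differ by genotype as well as by stage, and do not measure stage alone between genotypes. The part of these differences in the *nos*- result was not tested.

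Among the 25 members depleted by Upf1-Nos, 4 (16%) were higher in *nos*- at 2-3 h, with a median log2 change of 0.34, and among the 47 others 2 (4.26%), with a median of 0.00. Over all genes tested in both, 42.8% of the depleted and 4.84% of the others were higher, with medians of 0.43 and −0.15. No test was made of the difference between the members and all genes.

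**Figure D5:**
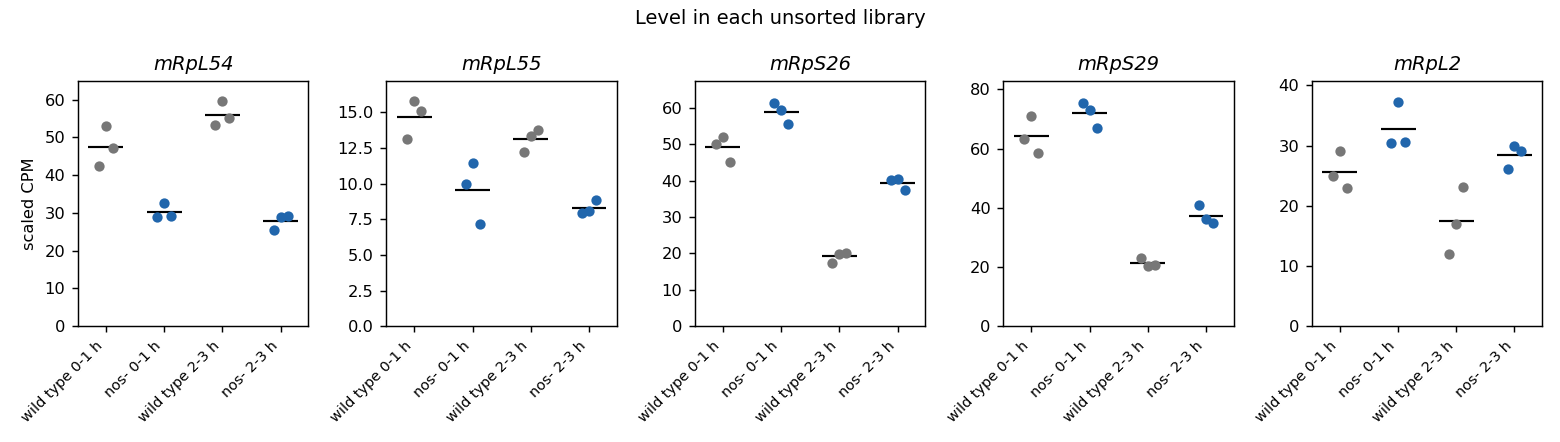
Level in CPM on the scaled library size (y axis, starting at 0) of 5 members in each of the 12 unsorted libraries, by genotype and time (x axis), with *nos*- in blue and lines at the mean of 3. *mRpL54* and *mRpL55* lie lower in *nos*- at both times. *mRpS26* and *mRpS29* fall between 0-1 h and 2-3 h in both genotypes and end higher in *nos*-, at 34.9 CPM or more against 23.1 CPM or less.

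The difference between the *nos*- effects at 2-3 h and 0-1 h was tested as an interaction, for which 10.1% of all genes were lower and 12.4% higher. Of the 6543 genes tested in both experiments, 1003 were higher. Among the members, 0 were lower and 2 higher. The 2 were *mRpS26* (log2 difference of effects 0.78 ± 0.12, SE, edgeR adjusted p = 0.00156) and *mRpS29* (0.64 ± 0.13, edgeR adjusted p = 0.00574). At 0-1 h, *mRpS26* was at 61.3, 59.3 and 55.5 CPM in *nos*- and at 50.1, 52.1 and 45.2 CPM in wild type, and *mRpS29* was at 75.4, 73.2 and 67.1 CPM against 63.1, 71.0 and 58.5 CPM. At any size of difference 9 members were lower, among them *mRpS9* at −0.46 ± 0.11. At an unadjusted p below 0.05, 17 were lower, and DESeq2 called 0 lower and 5 higher. The 2 higher became 8 without wild type replicate 3 at 2-3 h and 4 without *nos*- replicate 3 at 2-3 h.

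A list of 38 further genes of mitochondrial gene expression (aminoacyl-tRNA synthetases, translation, transcription and replication factors, *tko* and *bonsai*) had 20 depleted and 0 enriched in Upf1-Nos, with a median of −1.04. The synthetase genes *IleRS-m* (−5.25 ± 0.33, log2, SE) and *TrpRS-m* (−5.25 ± 0.27) were lowest, and the elongation factor gene *mEFTs* was at −2.78 ± 0.09. Of the 2 genes of its partner, the factor EF-Tu, *mEFTu1* was depleted (−1.52 ± 0.10) and *mEFTu2* was at 0.01 ± 0.09. In wild type 16 of the 38 were lower and 0 higher at 2-3 h, and in *nos*- at 2-3 h 11 were higher and 1 lower than wild type. Of 87 cytosolic ribosomal protein genes tested, 0 were depleted and 1 was enriched by Upf1-Nos, with a median of −0.11. Most of the 20 genes behind the Upf1-Nos correction factors encode cytosolic ribosomal proteins, so the scaling largely sets that median near 0. All 86 tested in the unsorted libraries had a stage change above 0, with a median of 0.86. Of 33 complex I genes, 5 were depleted, with a median of −0.25, and 1 was lower at 2-3 h. No list was tested against another.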

How the data were processed

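Paired-end reads were trimmed, short reads and those from mitochondrial RNA, tRNA or rRNA were discarded, and alignment used STAR 2.5.3a on Ensembl BDGP6.22. The authors estimated expected counts per gene and per isoform with RSEM 1.3.0 and deposited them without scaling. The deposited TPM values are RSEM's abundances from the same runs by the authors. Symbols were looked up by gene identifier, and coordinates, exon overlaps and 3′ UTR lengths were taken from the BDGP6.54 annotation.

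After rounding, genes were kept by filterByExpr at a count minimum and total minimum of 30, leaving 6857 genes in the 15 sorted and 8445 in the 12 unsorted libraries, which were modelled separately. The quasi-likelihood test of edgeR 4.0.16 under R 4.3.3 was used with TMM factors and a prior count of 0.125. Upf1-Nos libraries took correction factors of 1.26, 1.47 and 1.33, each the mean ratio to wild type over 20 genes that the study lists. A call needed an adjusted p under 0.05 together with a change beyond 2-fold, or beyond 0.5 on the log2 scale for *nos*- effects. The 276 genes called in Upf1, none of them a member, were left out of calls for Upf1-Nos and Upf1-NosL7 against wild type. Standard errors were derived from the log2 change and its F statistic. DESeq2 1.42.0, other filters, scalings, isoforms and omitted libraries served as alternatives, and the scripts were tested on simulated data. Figures were drawn with matplotlib 3.10.9 in Python 3.11.15.

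Residuals of same-numbered *nos*- and wild-type libraries correlated at 0.151 to 0.488 at 0-1 h and at 0.117 to 0.482 at 2-3 h. These exceed the minimum of 0.1 set for pairing. Differently numbered libraries were not compared and no label links the numbers, so pairing there is possible but not shown. The values reported come from the fit without the block, and the fit with it is given where it changed a call. No 2 replicates agreed within counting noise (chi-square over its degrees of freedom at least 6.55). The ratio was largest for sorted wild type replicate 3, at 131 and 133 against replicates 1 and 2. Between replicates 1 and 2 it was 26.5. Replicate 3 is part of every sorted comparison with wild type. The members, lists and tests were chosen with earlier results of these data known. The members named are all those called where at most 6 were called in a direction, otherwise the 4 of largest change with no overlap between groups, the extremes where none was called, and the 3 highest and 3 lowest by TPM. Others were named after their values were seen. A planned search for the Nos and Pumilio motif in 3′ UTRs was not run, as no genome sequence was used here.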

Additional observations from a re-analysis of the deposited data

Results flagged for a closer look

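*mRpS26* and *mRpS29* were singled out because their *nos*- effects differed between the 2 collection times in the interaction test of edgeR, with a log2 difference of 0.78 for *mRpS26* (adjusted p = 0.00156) and 0.64 for *mRpS29* (adjusted p = 0.00574). The lowest of 3 *nos*- libraries at 2-3 h lay above the highest wild-type library for each gene. Both were the only members that were lower at 2-3 h in wild type and not called so in *nos*-. This is not separate support, since the interaction compares those same stage changes in the same libraries. In *nos*-, *mRpS29* still fell from 75.4, 73.2 and 67.1 CPM to 40.8, 36.3 and 34.9 CPM, short of the 2-fold threshold. The interaction call of both genes holds for each library left out and for DESeq2.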

How the results depend on the processing

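Leaving out 1 library at a time gave 25 to 26 members lower in Upf1-Nos against wild type, 26 to 27 against Upf1-NosL7, 15 to 17 lower at 2-3 h in wild type and 13 to 14 in *nos*-, and 1 to 1 lower in Nos. It gave 1 to 2 lower and 0 to 1 higher in *nos*- at 0-1 h, 1 to 3 lower and 4 to 13 higher at 2-3 h, and 0 to 2 lower and 2 to 8 higher for the interaction. The other counts stayed at 0. At any size of change, the members lower were 49 in Upf1-Nos, 63 against Upf1-NosL7, 4 in Upf1, 4 in Nos, 1 in Upf1-NosL7, 7 in *nos*- at 2-3 h, 9 for the interaction, 28 from 0-1 h to 2-3 h in wild type and 29 in *nos*-. Those higher were 3 in Upf1-NosL7, 14 in *nos*- at 0-1 h, 18 at 2-3 h, 29 for the wild-type stages and 8 for the *nos*- stages. Without correction factors 16 members were lower in Upf1-Nos, and 17 against Upf1-NosL7. In *nos*- at 0-1 h, 0 were higher with DESeq2, RLE factors, maternal genes only, the groups compared only, or the most abundant isoform, and 1 was lower without a filter. For the interaction, 5 were higher with DESeq2, 4 with RLE factors and 4 with maternal genes only. The cause of these shifts was not tested. In TPM the members' median change in Upf1-Nos was −0.27, and the longest annotated 3′ UTRs had a median of 65 nt. With the replicate block, all 20 counts of members stayed within 1.5 times, with 25 lower in Upf1-Nos, 15 at the wild-type stages, and 5 higher in *nos*- at 2-3 h, where *mRpL21* was the one call of a named member that the block changed. Same-numbered sorted libraries did not all correlate (−0.401 to 0.664), and in both experiments the block pairs libraries by number only. The motif search, an intended comparison, was not run.

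Counts of 13 to 38 in the scarcest depleted members of Upf1-Nos libraries limit the precision of their changes, and low-level *mRpL55* was called narrowly. Values of the 8 members that overlap neighbours remain uncertain.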
